A study of Homo sapiens with 4 samples.

Results

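The genes described here are 10 of the 30863 in the deposited table, taken by symbol as the insulin-like growth factor axis with H19: IGF2, H19, MIR483, IGF1R, INSR, IRS1, IRS2, IGFBP1, IGFBP2 and IGFBP4. All 10 had a row, and all passed the filter of a mean of at least 1 normalized count. They were chosen by role and by the measured difference between the AMF and DMSO libraries, which was already known, so that difference is given for them as a description, with no test. RNA came from wild-type HepG2, an established line of human liver tumour cells given as hepatoblastoma in the labels. Cells were kept for 48 h with the solvent DMSO (2 libraries) or with AMF, which the series title spells out as amentoflavone, a plant biflavonoid (2 libraries). The labels conflict here: 90 µM AMF stands in the treatment protocol and 80 µM Tub B in the series design. Compound and dose are therefore not certain, and AMF means the libraries labelled with that name. The labels do not say whether replicates were separate cultures, so the spread between them may be technical.

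IGF2 is a secreted growth factor that fetal liver makes in quantity and many liver tumours make again. It acts through the receptor tyrosine kinase IGF1R and, in fetal tissue, through an isoform of the insulin receptor INSR, and both hand the signal to the docking proteins IRS1 and IRS2, which recruit PI 3-kinase and so activate AKT. Secreted binding proteins of the IGFBP family hold the ligands outside the cell, and AKT keeps the FOXO transcription factors out of the nucleus. IGF2 and the non-coding RNA H19 lie side by side on chromosome 11 and are imprinted: IGF2 is normally read from the paternal copy and H19 from the maternal copy, under a shared control region bound by CTCF. H19 also carries the precursor of miR-675 in an exon, and MIR483 lies within an intron of IGF2.

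Only RNA with a poly(A) tail was sequenced, so mature microRNAs were not measured, and reads counted in MIR483 do not give the level of its mature products. The mature products of the microRNA carried by H19 are shown because H19 RNA is their precursor. RefSeq (GRCh38.p14) places miR-675-3p at chr11:1996768-1996787 and miR-675-5p at chr11:1996800-1996822, both on the minus strand, and capitals mark the seed, bases 2 to 8.
miR-675-3p: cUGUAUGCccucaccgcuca
miR-675-5p: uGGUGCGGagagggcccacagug
The 2 arms do not share a seed. In the GENCODE annotation the MIR675 precursor overlaps exons of H19, and MIR675 itself was not analysed here.

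Libraries held 24226586 to 26966210 reads in genes, and 1 read was worth 0.929 to 1.03 normalized counts. All 8 hepatocyte-like markers were found in every library. Their summed level was 456569 to 468300 normalized counts in DMSO and 345838 to 364887 in AMF, so it was lower in both AMF libraries. The largest part of this sum was APOB, with 208340 and 211320 normalized counts in DMSO and 135488 and 133706 in AMF. Of the 8 markers 1 rose, 5 fell and 2 did not pass an adjusted p of 0.05 by limma. Among all 23828 genes tested, 15.6% rose and 16.2% fell in that sense, and the markers were not matched to these by level. HNF4A, a nuclear receptor that maintains hepatocyte gene expression, rose from 7044 and 7053 normalized counts in DMSO to 13071 and 12569 in AMF (log2 difference 0.86, adjusted p = 1.1e-09 by limma). ALB, the serum albumin gene, did not pass the test (log2 difference -0.02, adjusted p = 0.726 by limma), and neither did FGB (0.05). AFP, the fetal serum protein, fell (-0.61, adjusted p = 1.85e-08 by limma). APOB (-0.64), APOA1 (-0.58), SERPINA1 (-0.39) and TTR (-0.38) fell as well, so the fall was not particular to AFP. Of 9 markers of blood, fibroblasts and endothelium in the table, 1 to 3 were at 0 reads in a library, and nearly all of their sum (17750 to 25570 normalized counts) was LYZ, the lysozyme gene. Of the 7 tested, 1 rose, 3 fell and 3 did not pass. The endothelial adhesion gene PECAM1 rose from 145 and 185 normalized counts in DMSO to 289 and 277 in AMF (0.79, adjusted p = 0.000392 by limma). The other endothelial markers were near 0, CDH5 with 6 and 2 reads in DMSO and 6 and 3 in AMF. KDR had 0 and 0 reads in DMSO and 1 and 0 in AMF. The collagen gene COL1A1 fell from 116 and 86.2 to 5.57 and 8.24 (-3.70, adjusted p = 1.16e-06 by limma). PDGFRB also fell (-2.37, adjusted p = 3.23e-05 by limma), while COL1A2 had 0 to 1 reads and THY1 1 to 3 reads in a library. The markers given by name here were chosen after their values were seen. The part of these markers in the values below was not tested. In RNA from a whole culture, fewer cells of a kind and less RNA per cell cannot be told apart.

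IGF2 RNA was the member with the largest difference among those with more than 100 normalized counts, at 21.2% of its DMSO level in AMF. The DMSO libraries held 14142 and 12290.2 normalized counts and the AMF libraries 2783 and 2810.3. Both AMF libraries lay far below both DMSO libraries, and the AMF pair was the closer one. The log2 difference, AMF minus DMSO and computed after adding 1 to each normalized count, was -2.24, SE 0.0566, and lay between -2.34 and -2.13 for the 4 pairings of an AMF with a DMSO library. By normalized count IGF2 ranked 217 among all genes in DMSO and 1906 in AMF. In GENCODE, exons of IGF2 overlap those of INS-IGF2, of the antisense gene IGF2-AS and of AC132217.1, and the library kit does not keep strand, so some of these reads could belong to those genes.

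H19, far less abundant in reads, was also lower in AMF, by a smaller factor. It had 122 and 99.6 normalized counts in DMSO against 49.2 and 40.2 in AMF, a log2 difference of -1.29, SE 0.217. Summed per group, there were 219 reads in DMSO and 92 in AMF, for a read ratio of 0.405 with a 95% exact interval of 0.314 to 0.519 that covers counting error only. The groups did not overlap. There were 116 and 123 reads of IGF2 for each read of H19 in DMSO and 56.5 and 69.9 in AMF, so within every AMF library the excess of IGF2 over H19 was smaller.

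MIR483 rested on few reads. They numbered 9 and 34 in the DMSO libraries and 2 and 0 in the AMF libraries. The read ratio was 0.0448, with a 95% exact interval of 0.00526 to 0.172. That interval covers counting error only and leaves out the spread between libraries. The DMSO replicates did not follow their host gene. Replicate 2 had the more MIR483 reads and replicate 1 the more IGF2 reads, at 0.636 and 2.84 reads of MIR483 per 1000 of IGF2 in replicates 1 and 2. AMF replicate 1 had 0.667 per 1000, close to DMSO replicate 1. The log2 difference of -3.49, SE 0.772, ranged from -5.17 to -1.81 over the 4 library pairings, so its direction held in each pairing and its size did not.

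**Figure D1:**
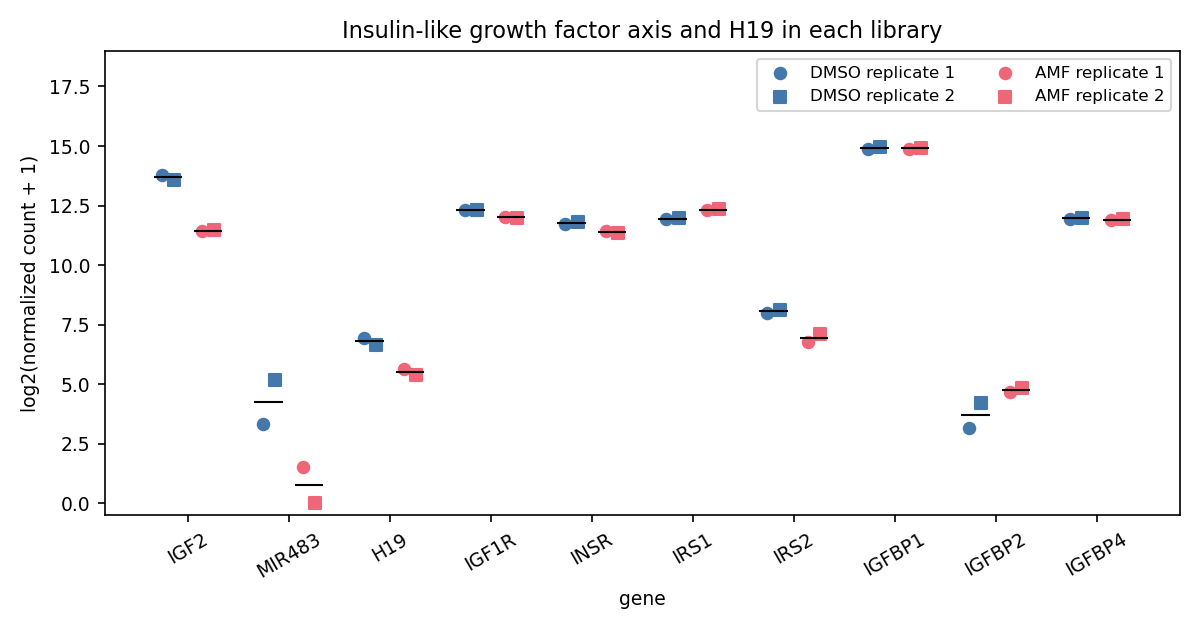
Level of each of the 10 genes in each library as log2(normalized count + 1), with circles for replicate 1, squares for replicate 2 and a line at the mean of each group of 2 libraries. IGF2, MIR483 and H19 sit lower in AMF, IRS1 sits higher, and IGFBP1 and IGFBP4 are nearly level.

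The receptors were moderately lower. IGF1R, the receptor for both IGF ligands, had 5027 and 5059 normalized counts in DMSO and 4122 and 4068 in AMF, a log2 difference of -0.30, SE 0.0441. INSR, the insulin receptor, had 3345 and 3613 in DMSO and 2732 and 2611 in AMF, a log2 difference of -0.38, SE 0.0537. Neither pair of groups overlapped, and the receptors kept nearly the same proportion. Per kilobase of exon, INSR was 0.888 and 0.953 of IGF1R in DMSO and 0.884 and 0.856 in AMF, and these ratios nearly touch. Isoforms of INSR cannot be separated in a table by gene.

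The docking proteins differed in opposite directions. IRS1 was the higher one in AMF, with 3873 and 4042 normalized counts in DMSO and 5133 and 5172 in AMF, a log2 difference of 0.38, SE 0.0455. IRS2 was lower, with 253 and 277 in DMSO and 108 and 137 in AMF, a log2 difference of -1.12, SE 0.146. In both genes the groups were apart. Per kilobase of exon, IRS1 exceeded IRS2 by 12.5 and 11.9 times in DMSO and by 39.0 and 30.9 times in AMF. Exons of IRS2 overlap those of the non-coding gene AL162497.1 in GENCODE.

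The promoters of these docking proteins are shown because the pair moved apart. Each sequence is the 250 bases before the RefSeq start on the minus strand (GRCh38.p14), chr2:226799821-226800070 for IRS1 and chr13:109786584-109786833 for IRS2. Capitals mark matches on either strand to GTAAACA (forkhead FOXO), CAAAACAA (insulin response element), GCGTG (aryl hydrocarbon receptor core) or ACGTG (hypoxia-inducible factor core).
IRS1: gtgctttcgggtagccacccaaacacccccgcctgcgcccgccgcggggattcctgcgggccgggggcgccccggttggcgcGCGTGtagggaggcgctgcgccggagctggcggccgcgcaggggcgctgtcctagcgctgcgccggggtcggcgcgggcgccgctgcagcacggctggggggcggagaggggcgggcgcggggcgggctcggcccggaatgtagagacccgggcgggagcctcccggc
IRS2: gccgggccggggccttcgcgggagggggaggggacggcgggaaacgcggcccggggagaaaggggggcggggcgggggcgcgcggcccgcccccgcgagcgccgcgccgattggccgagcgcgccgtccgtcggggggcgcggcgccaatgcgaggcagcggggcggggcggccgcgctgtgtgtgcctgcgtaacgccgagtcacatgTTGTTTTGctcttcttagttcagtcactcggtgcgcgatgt
IRS2 holds CAAAACAA in reverse, with its first base at position -41 from the start. IRS1 holds GCGTG at position -168. Of 35116 RefSeq promoter windows of 300 bases, 1.68% held CAAAACAA, 3.42% GTAAACA, 36.5% GCGTG and 21.4% ACGTG. The RefSeq table gave 9 windows for 7 of the 10 genes. IGF2, MIR483 and IGFBP1 had no window, so whether their promoters hold these motifs was not examined. Of the 9 windows, only that of IRS2 held CAAAACAA and none held GTAAACA. IGF1R held GCGTG 4 times and 1 of the 3 IGFBP2 windows held it once. The core motifs overlap no match of another motif here, and CACGTG, which the IRS1 window holds after its start, counts as ACGTG on each strand. Such matches are descriptions of letters, and no binding was measured.

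Of the binding proteins, IGFBP1 and IGFBP4 stayed near their DMSO level, and IGFBP2 was higher in AMF at few reads. IGFBP1, a binding protein that hepatocytes secrete and insulin represses, was the most abundant member, with 29647 and 31492 normalized counts in DMSO and 30393 and 31303 in AMF. Its groups overlapped, and the log2 difference was 0.01, SE 0.0383, with the library pairings running from -0.05 to 0.08. IGFBP4 had 3964 and 3994 in DMSO and 3767 and 3937 in AMF, a log2 difference of -0.05, SE 0.0469. Its AMF libraries were both lower, but the nearest pairing differed by -0.01. IGFBP2 was scarce, with 8 and 17 reads in DMSO and 26 and 27 in AMF. The read ratio was 2.04, with a 95% exact interval of 1.25 to 3.43. That interval covers counting error only and leaves out the spread between libraries. The log2 difference of IGFBP2 was 1.06, SE 0.435, and was 1.58 without DMSO replicate 2 but 0.54 without DMSO replicate 1.

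Levels can be compared between genes only per length, here as normalized counts per kilobase of all GENCODE exons of a gene. In DMSO, IGFBP1 stood first at 18493 ± 789 (SD, n = 2), followed by IGFBP4 at 1808 ± 9.71 and IGF2 at 1719 ± 170, whose order is within the spread of IGF2. IRS1 (398 ± 12.0), IGF1R (362 ± 1.64) and INSR (333 ± 18.1) formed the next tier. H19 (38.2 ± 5.46) and IRS2 (32.6 ± 2.11) came lower, with a gap about the size of the spread of H19, and IGFBP2 (2.67 ± 1.40) was last. In AMF, IRS1 (518 ± 2.79) stood above IGF2 (364 ± 2.52), IGF1R (294 ± 2.73) and INSR (256 ± 8.15), and H19 (15.4 ± 2.21) and IRS2 (15.04 ± 2.55) did not differ beyond their spread. IGF2 thus went from the third to the fourth place, from near IGFBP4 to near the receptors. The order also depends on taking all annotated exons as the length of a gene, which can exceed the transcript in use. MIR483 is left out of this order, since its short precursor makes a per-length value unsteady.

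The sum of IGFBP1 to IGFBP6 per kilobase was 20552 ± 782 in DMSO and 20545 ± 464 in AMF, of which IGFBP1 made up 89.7% to 90.9% over the 4 libraries. Set against IGF2, the sum was 10.9 and 13.2 times the IGF2 level in DMSO and 55.8 and 57.1 times in AMF. The sum was nearly the same in both groups, so the ratio followed the IGF2 level that it is divided by. RNA levels do not give the amounts of the secreted proteins.

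**Figure D2:**
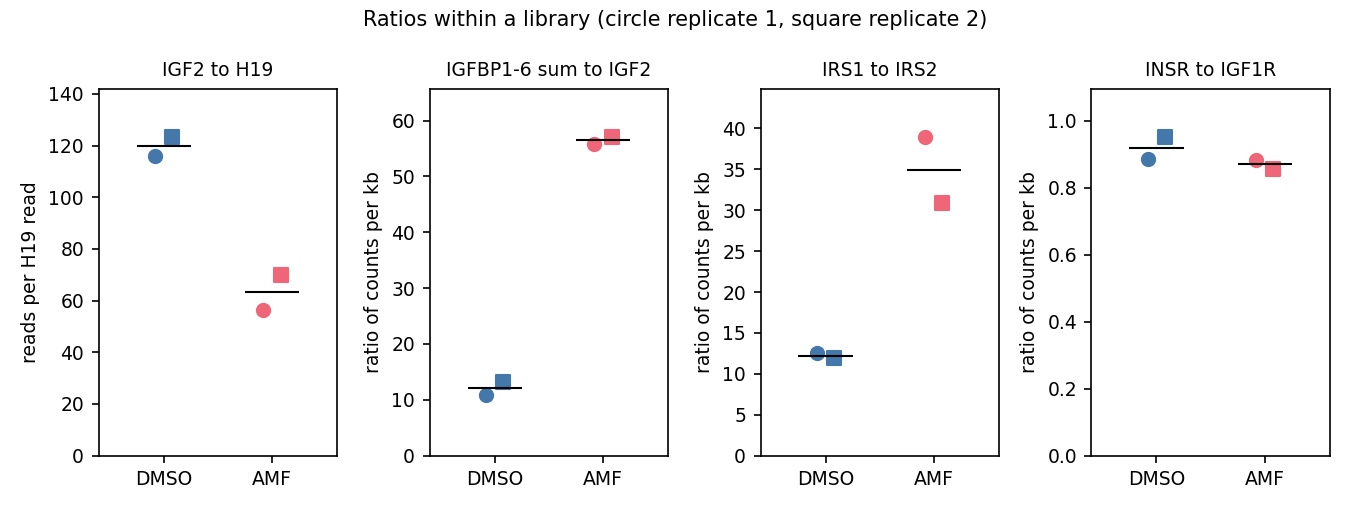
Ratios within each library, with circles for replicate 1, squares for replicate 2 and a line at each group mean (n = 2). The panels show reads of IGF2 per read of H19 and, as ratios of normalized counts per kilobase, IGFBP1 to IGFBP6 against IGF2, IRS1 against IRS2, and INSR against IGF1R. The first 3 ratios differ between groups by more than the gap within a pair, and the INSR to IGF1R ratio hardly does.

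Of the 10 genes, 7 lay lower in both AMF libraries than in both DMSO libraries, 2 higher and 1 overlapped. Among all 23828 genes tested, 29.7% lay lower and 33.8% higher in that sense. Nothing is read from these counts, because the members were chosen with this contrast known. Their median log2 difference was -0.34, and that of all genes tested 0.04.

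The genes whose levels over the 4 libraries were most like those of IGF2 were the Wnt inhibitor DKK1, the non-coding MGC39584 and the serpin SERPINA11. Likeness was the root mean square difference of log2 levels centred per gene, over 11136 other genes whose mean was 100 normalized counts or more, and came to 0.0737, 0.0834 and 0.0849. DKK1 had 22437 and 18889 normalized counts in DMSO and 4507 and 4958 in AMF. For H19 the nearest were RP11-347I19.8 (0.0457), the adaptor gene SH2D4A (0.0630) and the keratin KRT80 (0.0681). With 4 libraries in 2 groups, this likeness follows mainly the group difference.

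Other genes of the axis were taken from 7 lists, of which 103 genes were tested. With limma-trend and Benjamini-Hochberg adjustment over all genes, 13 of these rose, 41 fell and 49 did not pass an adjusted p of 0.05. Thus 52.4% passed, beside 31.8% of all genes tested (15.6% higher and 16.2% lower), with a median log2 difference of -0.16. The lists were not matched to all genes by expression level and were chosen with earlier results known. Nothing is therefore read from the gap between these shares. With limma-trend, 32 and 36 passed without DMSO replicates 1 and 2. Without AMF replicate 1 or 2, limma-trend called 0, with 36 and 40 at an unadjusted p under 0.05, and voom on the recovered reads called 18 and 17. Of the 27 listed genes that the naming rule gave, 18 and 19 kept their call in limma-trend when DMSO replicate 1 or 2 was left out, and 11 and 12 in voom when AMF replicate 1 or 2 was. Of those named below, the limma-trend call ended without either DMSO library for IGFBP6 (adjusted p = 0.0677 and 0.0599 without replicates 1 and 2), HTRA1 (0.0924 and 0.0626), PTPN1 (0.164 and 0.106), FOXO1 (0.0520 and 0.0743), IGF2-AS (0.102 and 0.182), SYT8 (0.270 and 0.0974), G6PC (0.140 and 0.373) and NAP1L4 (0.0702 and 0.0956). It ended without DMSO replicate 1 for IGFBP3 (0.207) and IGF2BP3 (0.0707), and without DMSO replicate 2 for SESN3 (0.0865) and CARS (0.126).

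Among other ligands, receptors and binding proteins, 8 genes were tested, of which 0 rose, 2 fell and 6 did not pass. The median log2 difference of 0.24 rests in part on genes with very few reads. These are IGF1, IGFBP5 (0.70, with 0 to 3 reads in a library) and IGFBPL1 (0.48, with 0 to 2 reads). IGFBP6, a binding protein that prefers IGF2, fell from 291 and 275 normalized counts in DMSO to 121 and 155 in AMF (-1.05, SE 0.141, adjusted p = 4.37e-05 by limma). IGFBP3, the main carrier of IGF in serum, fell by 0.63 on the log2 scale, but its difference was -0.36 without DMSO replicate 1 and -0.90 without DMSO replicate 2. IGF2R, which removes IGF2 by carrying it to lysosomes, was abundant and did not pass, with 15748 and 16045 normalized counts in DMSO and 15882 and 16156 in AMF (0.01, SE 0.0367, adjusted p = 0.856 by limma). IGF1, the other ligand, had 2 and 0 reads in DMSO and 8 and 2 in AMF, and did not pass (adjusted p = 0.209 by limma).

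Of 5 tested genes that release IGF from its binding proteins or hold that release back, 1 rose, 1 fell and 3 did not pass, with a median of 0.06. The secreted protease HTRA1 rose from a low level, 3 and 5 reads in DMSO to 19 and 23 in AMF (2.12, SE 0.518, adjusted p = 0.00555 by limma). STC2, a secreted inhibitor of the protease PAPPA, fell (-0.53, SE 0.0625). PAPPA itself did not pass (0.31, SE 0.485).

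Of 32 tested adaptors, kinases and brakes of the pathway, 2 rose, 15 fell and 15 did not pass, with a median of -0.25. SOCS1, which limits signalling from cytokine and insulin receptors, fell most, from 240 and 249 normalized counts in DMSO to 65.0 and 82.4 in AMF (-1.73, SE 0.161, adjusted p = 1.27e-06 by limma). The transcription factors FOXO4 (-0.75), FOXO1 (-0.65) and FOXO3 (-0.47) fell, the last named after its value was seen. The adaptor SHC1 rose (0.38, SE 0.0441), as did the phosphatase PTPN1 (0.14, adjusted p = 0.0496 by limma). The PTPN1 call ended on the deposited log2 scale, without a filter or with a pseudocount of 0.1 (adjusted p = 0.0527, 0.0723 and 0.0590).

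Of 14 tested genes that act on IGF2 or H19 RNA or on their locus, 0 rose, 10 fell and 4 did not pass, with a median of -0.25. PLAG1, a transcription factor that activates IGF2, fell from 343 and 324 normalized counts in DMSO to 153 and 160 in AMF (-1.09, SE 0.117, adjusted p = 4.96e-06 by limma). HMGA2, a fetal chromatin protein, fell by 0.80 on the log2 scale, and CTCF, which binds the shared control region, by 0.51. All 3 IGF2 mRNA-binding protein genes, named after their values were seen, fell, IGF2BP1 by 0.40, IGF2BP2 by 0.44 and IGF2BP3 by 0.25.

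**Figure D3:**
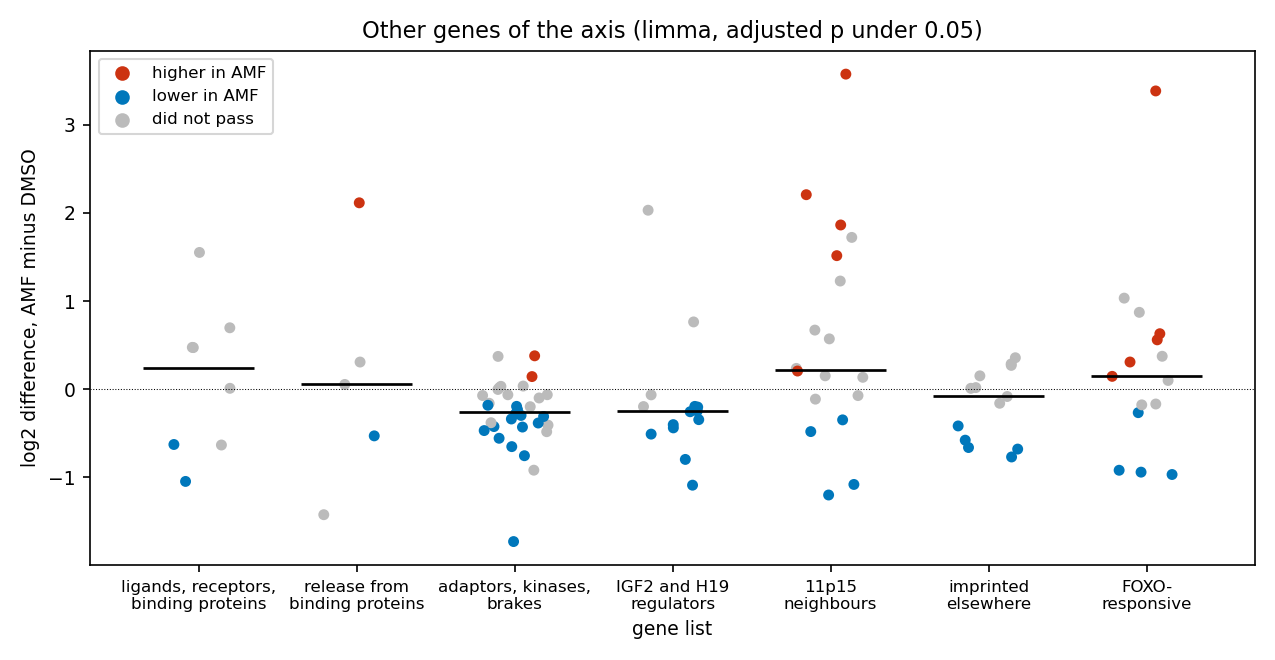
Log2 difference of AMF against DMSO for the tested genes of each of 7 lists, each point a gene, coloured by its call at an adjusted p of 0.05 with limma, with a line at the list median. No gene rose in the list of IGF2 and H19 regulators, and rises and falls are mixed among the chromosome 11 neighbours.

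The neighbours of IGF2 and H19 on chromosome 11 did not share 1 direction. Of 18 tested, 5 rose, 4 fell and 9 did not pass, with a median of 0.22. IGF2-AS, the antisense gene whose exons overlap those of IGF2, fell from 43.0 and 56.5 normalized counts in DMSO to 17.6 and 24.7 in AMF (-1.20, SE 0.316, adjusted p = 0.00887 by limma), and without strand its reads cannot be told from those of IGF2. MRPL23, which RefSeq places next to H19 among the listed genes, did not pass (0.24, adjusted p = 0.0538 by limma). Just beyond it, the muscle gene TNNT3 rose from 13.0 and 13.4 normalized counts in DMSO to 176 and 160 in AMF (3.57, SE 0.245), and the actin-binding LSP1 rose by 1.86. The channel TRPM5 also rose (2.21), as did PHLDA2 (1.52) and NAP1L4 (0.21), both named after their values were seen. SYT8 (-1.08), the lysosomal protease CTSD (-0.48) and CARS (-0.35), the last also named after its value was seen, fell, and CARS was at -0.19 without DMSO replicate 2.

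**Figure D4:**
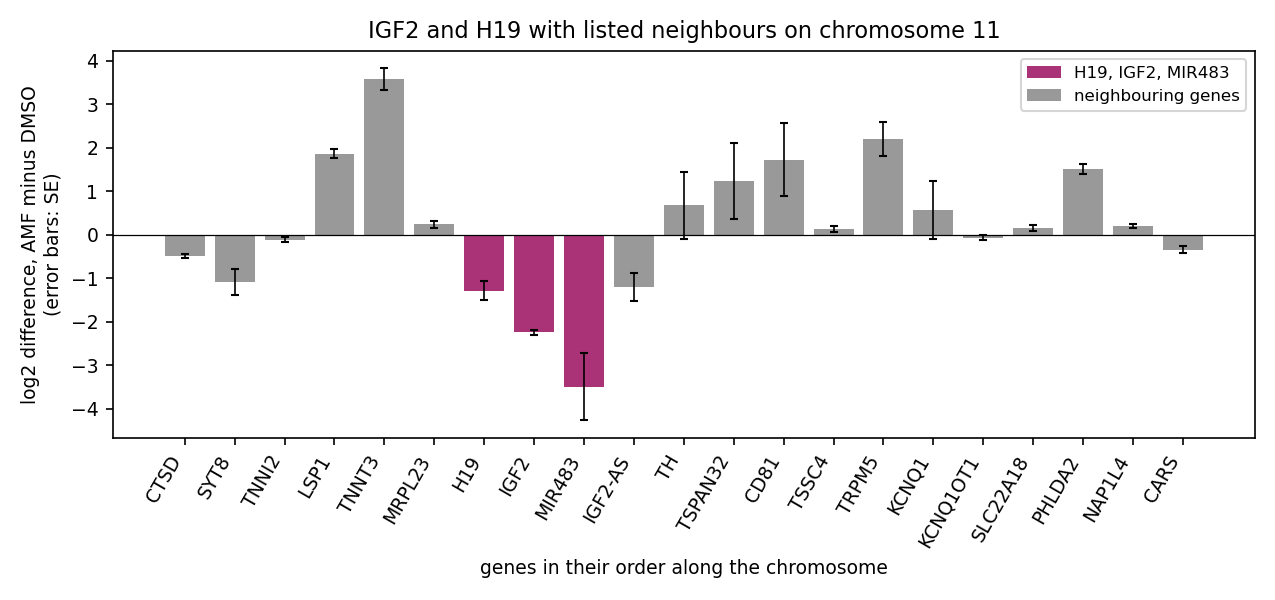
Log2 difference of AMF against DMSO, with its standard error, for H19, IGF2, MIR483 and their tested listed neighbours on chromosome 11, in the order of the RefSeq table and not to scale. The run from H19 to IGF2-AS is lower in AMF, while LSP1 and TNNT3 on one side and TRPM5 and PHLDA2 on the other rose.

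Of 13 tested imprinted genes elsewhere in the genome, 0 rose, 5 fell and 8 did not pass, with a median of -0.08. PEG10, a retrotransposon-derived gene that is abundant in fetal liver cancers, had 52186.5 and 46118 normalized counts in DMSO and 28866 and 28764 in AMF (-0.77, SE 0.0473, adjusted p = 1.88e-08 by limma). DLK1, a surface protein of fetal liver cells, fell by 0.68 and the zinc finger gene PEG3 by 0.66 on the log2 scale.

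Of 15 tested genes that respond to FOXO or insulin in liver, 5 rose, 4 fell and 6 did not pass, with a median of 0.15. The stress gene GADD45A rose (0.56), as did the glucose-6-phosphatase G6PC (0.63, adjusted p = 0.0438 by limma), whose call ended without a filter or with a pseudocount of 0.1 (adjusted p = 0.0972 and 0.0814). The G6PC difference was 0.41 without AMF replicate 1 and also 0.41 without DMSO replicate 2. TXNIP, a glucose-induced regulator of glucose uptake, fell by 0.97, SESN3 by 0.94 and the cyclin CCNG2 by 0.92 on the log2 scale. PCK1, the gluconeogenic enzyme that insulin represses, did not pass (1.03, SE 0.546, adjusted p = 0.177 by limma). Rises and falls were thus nearly even in number within this list.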

How the data were processed

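Poly(A)-selected RNA of 4 HepG2 libraries, 2 of DMSO and 2 of AMF, was sequenced from libraries without strand information, per the labels' protocols. The submitters' processing notes name STAR 2.7.0, featureCounts and hg19. For annotation, filters and normalization, nothing is stated in the labels or the file. The authors deposited log2-scale values for 30863 genes, whose form, as read from the values, is that of variance-stabilized counts over size factors. Inverting it gave normalized counts, and 100% of values were whole reads within 0.01. There were 0 columns of other samples.

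Differences were fitted with limma 3.58.1 in R 4.3.3 (limma-trend, log2(normalized count + 1), group as the sole term) on 23828 genes with a mean of at least 1, with Benjamini-Hochberg adjustment over all of them. This scale understates the difference of genes with few counts. No count model was used as the main test. The plan kept one for a table of whole counts, and the deposited unit is log2. The recovered whole reads would have allowed one, and voom on them was run as an alternative. The fit was also run on simulated data. Unlike here, few genes changed in that simulation and all had the same spread beyond counting error, so nothing is concluded from it.

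The members and lists were chosen with earlier results of these data known. The rule named, per list, up to 3 rises and 3 falls that passed, had a mean of 10 or more and did not overlap between groups, plus the 3 genes nearest in pattern to IGF2 and to H19. A gene that this rule gave is counted but not reported here. GENCODE release 29 (another build than hg19) gave exon lengths and overlaps. Read-ratio intervals are exact binomial (95%) on reads summed per group, so they cover only counting error and leave out the spread between libraries. No molecular identifiers are named in the labels, so duplicate reads could not be set apart. Alternatives were another pseudocount, other filters, library totals as scaling, the deposited values, voom, each library left out and a replicate block.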

Additional observations from a re-analysis of the deposited data

How the results depend on the processing

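When 1 library was left out, 9 of the 10 members kept their direction. Their groups did not overlap, so this outcome was fixed and adds no support. IGFBP1, whose groups overlapped, ranged from -0.03 to 0.06. On the deposited log2 scale, which compresses low counts, differences were smaller for H19 (-0.61), MIR483 (-0.67), IRS2 (-0.72) and IGFBP2 (0.28), and a pseudocount of 0.1 gave -5.33 for MIR483. Of all genes, 7578 passed with all libraries and 0 to 3531 with limma-trend when 1 library was left out (0 without AMF replicate 1 or 2, with 6575 and 6387 at an unadjusted p under 0.05). Voom on the recovered reads, tried without single libraries after seeing the data, called 1379 and 1315 without AMF replicates 1 and 2. For the 103 listed genes the calls went from 54 to 0 to 36 with limma-trend and to 18 and 17 with voom without AMF replicates 1 and 2. With the replicate number as a replicate block, 8157 of all genes and 56 listed genes passed. The deviations of same-numbered libraries correlated at 0.0238 over 11137 genes. With 2 libraries per group, this cannot show whether libraries of the same number were handled together. All 27 listed genes that the naming rule gave kept their call with voom on all libraries, the block, library totals or a mean of at least 10. On the deposited scale 26 kept it, and 25 without a filter or with a pseudocount of 0.1. The rule took only genes that had passed in these same libraries, so this is no separate support for them. MIR483, IGFBP2, IGF1, IGFBP5, IGFBPL1, HTRA1, PAPPA and PCK1 rest on few reads, which limits the precision of their values.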
